A study of Mus musculus with 70 samples.

Results

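The genes described here belong to 3 families of guidance cues and their receptors: the ephrins with the Eph receptors, the Slits with the Robo receptors, and the netrins with the receptors DCC, neogenin and UNC5. They were chosen by symbol alone: every row of the deposited gene table named as an Eph receptor, ephrin, Slit, Robo, netrin, netrin-G, Unc5 gene, Dcc or Neo1. This gave 42 of the 23078 rows, for 41 symbols, because Ntng1 has 2 rows with different gene identifiers. They fall into 9 EphA receptors, 5 EphB receptors, 5 ephrin-A and 3 ephrin-B ligands, 3 Slits, 4 Robos, 4 netrins, 3 netrin-G rows and 6 netrin receptors.

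Ephrins are ligands bound to the cell surface, the A type through a lipid anchor and the B type through a membrane-spanning segment, and they signal on contact to Eph receptor tyrosine kinases, most often as repulsion. Slits are secreted proteins that repel growing axons and migrating cells through Robo receptors, while netrins are secreted laminin-like proteins that attract through DCC and neogenin and repel through UNC5 receptors. In the forming cortex these families are known for acting on progenitor adhesion and division, on the migration of young neurons and on the paths of axons.

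Gene expression was measured by bulk RNA sequencing of GFP-positive cells sorted from micro-dissected mouse dorsal cortex, the future neocortex. Neural stem cells (NSC, 33 libraries at 10 stages from E10.5) came from Hes5::GFP embryos, in which a Notch target gene drives the reporter, and basal progenitors (BP, 23 libraries at 8 stages from E12.5) and newborn neurons (NBN, 14 libraries at 5 stages from E15.5) from Tbr2::GFP embryos, in which a gene of basal progenitors drives it. The last stage in each series was postnatal day 1 (PN). Each of the 23 groups of a cell type at a stage held 2 to 4 libraries, and all were labelled wild-type C57Bl/6 and female. The labels do not say how BP and NBN, which come from the same reporter line, were separated, and the reporter line coincides with the contrast of NSC to the other cells, so line and cell type cannot be told apart. The labels do not say whether replicates came from separate animals, so a p-value here covers the spread among the libraries at hand, part of which can be technical.

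Values are in TPM, a unit corrected for each transcript's length and each library's total, so genes can be compared by level but the sequencing depth is unknown. Libraries listed 16098 to 21210 genes above 0. In 67 of 70 libraries the most similar library was of the same group. Hes5 stood at 163 ± 126 TPM in NSC (SD, n = 33) and 4.25 ± 1.45 in BP (n = 23), and Eomes, which encodes Tbr2, at 421 ± 101 TPM in BP, 25.1 ± 16.2 in NBN (n = 14) and also 303 ± 181 in NSC. A list of 9 neuronal markers summed to 2904 ± 1802 TPM in NSC, 5709 ± 860 in BP and 8874 ± 1119 in NBN, so the sorted progenitors also carried neuronal transcripts. These means pool stages that differ between the cell types. At E15.5 the mean sum was 5888 TPM in NSC and 5786 in BP. At every other shared stage BP was higher, with 4826 in NSC and 5095 in BP at E16.5 and 939 and 3987 at PN. Of the 70 libraries labelled female, 43 held more than 10 TPM of Y-linked transcripts, and 1 PN library is NSC by its title but basal progenitor by its cell type field and was kept as NSC replicate 3.

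Most of these genes were expressed in the cortex. Of the 42 rows, 32 had a group mean of 10 TPM or more somewhere, 13 reached 100 TPM, and 10 were at 10 TPM or more in all 23 groups. The ephrin-B ligands were the most abundant class, with a summed level of 437 ± 116 TPM in NSC, 530.2 ± 104 in BP and 528 ± 66.4 in NBN. Efnb2 had the highest mean of any single member in all 3 cell types, at 198 ± 82.7 TPM in NSC, 300.2 ± 88.1 in BP and 316 ± 75.5 in NBN. Ntn5 stayed below 1 TPM in every group and was the only member not tested. The highest group mean belonged to NSC for 13 rows, to BP for 13 and to NBN for 16, so no cell type carried most of the family.

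**Figure D1:**
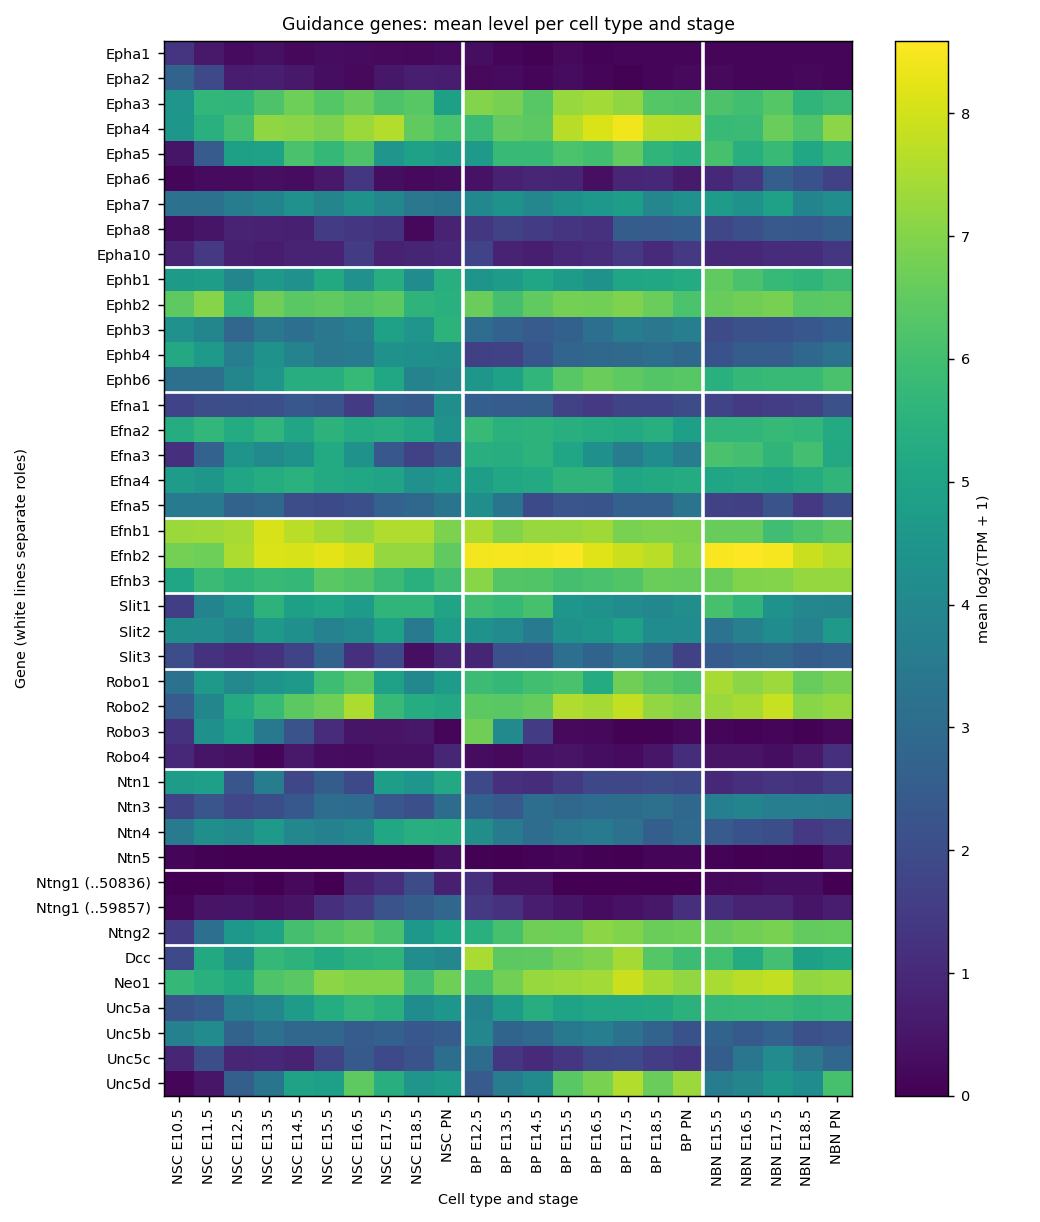
Mean level of each of the 42 rows (vertical axis, grouped by role with white lines between) in each of the 23 groups of cell type and stage (horizontal axis), as mean log2(TPM + 1) in colour. Efnb2 and Efnb1 are bright throughout, Robo3 is bright at E12.5 and dark from E15.5, and Unc5d and Epha4 brighten in late BP.

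Promoter sequence is shown for 1 cluster of ligands whose members behaved differently. Efna1, Efna3 and Efna4 lie next to each other on mouse chromosome 3 (GRCm38), all on the minus strand, with gaps of 32.8 kb between Efna1 (89271733 to 89281142) and Efna3 (89313899 to 89322965) and of 10.4 kb between Efna3 and Efna4 (89333390 to 89338028). Each sequence is the 250 bases before a gene start as RefSeq gives it on GRCm38.p6, read 5′ to 3′ on the gene's strand, with every CG dinucleotide in capitals. The Efna4 window ends at the annotated gene end, whereas the Efna1 and Efna3 windows lie before RefSeq starts that are inside the GENCODE gene spans, and each of those genes has a further start in the same table. The windows are chr3:89279646-89279895 for Efna1, chr3:89321769-89322018 for Efna3 and chr3:89338029-89338278 for Efna4, and none overlaps an annotated exon.
Efna1: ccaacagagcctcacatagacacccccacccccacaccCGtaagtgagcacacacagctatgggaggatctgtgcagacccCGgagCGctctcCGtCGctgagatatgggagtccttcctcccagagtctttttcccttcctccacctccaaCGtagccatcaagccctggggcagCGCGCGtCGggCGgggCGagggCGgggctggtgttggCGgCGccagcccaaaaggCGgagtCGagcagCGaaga
Efna3: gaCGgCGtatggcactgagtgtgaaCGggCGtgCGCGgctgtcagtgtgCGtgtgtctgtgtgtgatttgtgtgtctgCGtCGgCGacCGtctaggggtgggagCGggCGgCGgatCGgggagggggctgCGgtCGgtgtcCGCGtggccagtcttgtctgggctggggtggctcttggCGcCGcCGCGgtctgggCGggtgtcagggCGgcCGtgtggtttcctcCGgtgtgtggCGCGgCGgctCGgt
Efna4: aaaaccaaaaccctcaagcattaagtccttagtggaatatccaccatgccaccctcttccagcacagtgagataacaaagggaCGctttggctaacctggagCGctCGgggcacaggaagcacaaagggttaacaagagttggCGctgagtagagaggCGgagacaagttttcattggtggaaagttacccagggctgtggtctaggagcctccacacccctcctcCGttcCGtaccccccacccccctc
The Efna3 window holds 31 CG dinucleotides, a number reached by 5.19% of all 32851 promoters in the table. The Efna1 window holds 18, reached by 21.7%, and the Efna4 window 7, reached by 46.3%, against a median of 6 over all promoters. The windows at the further starts, which each overlap 1 annotated exon and are not printed, were closer to each other. They hold 19 CG for Efna3, reached by 19.7% of promoters, and 16 for Efna1, reached by 25.4%. GC content was 64.4%, 70.4% and 54.4% for Efna1, Efna3 and Efna4. The levels of the 3 genes are given with the ephrins.

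Cell types were compared at their shared stages with limma on log2(TPM + 1), weighting each stage equally, and a gene was called when its Benjamini-Hochberg adjusted p over 15508 genes was below 0.05 and its log2 difference was at least 1 in size. In BP against NSC (8 stages, E12.5 to PN), 7 of 41 members were called higher, where 1.87% of all genes were, and 3 lower, where 6.22% were (10 in all, against 8.09%). In NBN against BP (5 stages, E15.5 to PN), 4 were higher and 5 lower, against 4.36% and 5.06% of all genes (9 in all, against 9.42%). In NBN against NSC, which uses the same libraries as both other comparisons, 8 were higher and 5 lower, against 6.51% and 12.6% (13 in all, against 19.1%). The members' median log2 difference was 0.27, -0.01 and 0.39 in the 3 comparisons, beside -0.02, -0.07 and -0.12 over all genes tested.

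**Figure D2:**
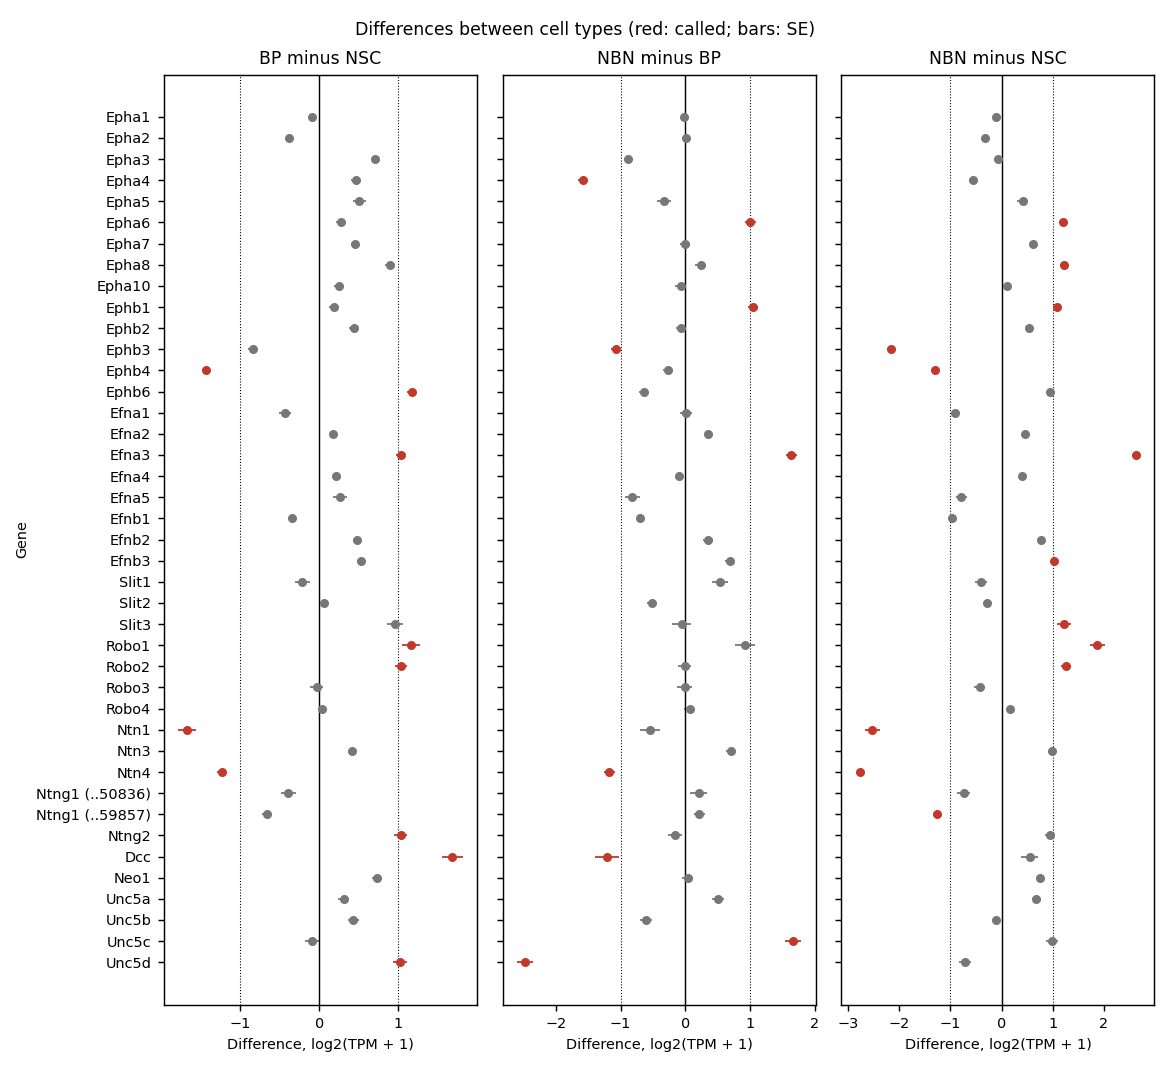
Log2 difference on the log2(TPM + 1) scale (horizontal axis, bars are the standard error) for the 41 tested members (vertical axis) in BP minus NSC, NBN minus BP and NBN minus NSC, with called members in red and dotted lines at -1 and 1. Dcc is the highest member in BP minus NSC, Unc5d the lowest in NBN minus BP, and Efna3 the highest in NBN minus NSC.

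The 7 members higher in BP than in NSC were receptors, except for the ligand Efna3 and the membrane-anchored Ntng2: Dcc, Ephb6, Robo1, Robo2 and Unc5d completed the set. The 3 lower in BP were the secreted Ntn1 and Ntn4 and the receptor Ephb4. With E12.5 to E16.5 alone, 1 member was called higher (Dcc) and 1 lower (Ephb4), where 0.426% and 3.39% of all genes were. With E17.5 to PN alone, 11 were called higher and 8 lower, where 5.87% and 12.6% of all genes were, so the counts over all genes were also larger at the later stages.

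Stage windows were compared within a cell type: early (E10.5 and E11.5, NSC only), mid (E13.5 to E15.5) and late (E17.5 to PN). From early to mid, 13 of 41 members rose in NSC and 5 fell, where 13.7% and 5.26% of all genes did (18 in all, against 19.0%). From mid to late, 6 rose in NSC and 3 fell, against 9.31% and 2.45% (9 in all, against 11.8%). In BP, 3 rose and 3 fell in that window, against 3.29% and 1.42% (6 in all, against 4.71%). In NBN from E15.5 and E16.5 to the later stages, 1 rose (Unc5d) and 1 fell (Slit1), against 1.27% and 1.06% (2 in all, against 2.33%). The members' median log2 differences were 0.38, -0.14, 0.13 and -0.00 in these 4 comparisons, beside 0.14, 0.12, 0.12 and 0.03 over all genes. A moderated F test over all stages called 39 of 41 members changed in NSC, 28 in BP and 10 in NBN, against 67.2%, 31.4% and 12.1% of all genes.

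Marker sums of other cell types moved with these windows. The neuronal marker list summed in NSC to 445 TPM at E10.5, 5888 at E15.5 and 939 at PN, the 6 oligodendrocyte precursor markers to 46.6, 23.5 and 1621, and the 5 astroglial markers to 3.63, 132 and 1149 at the same stages. The 5 erythroid markers summed to 5416 TPM at E10.5 and 1.96 at E15.5. The 7 pericyte and meningeal markers summed to 78.0 TPM at E10.5, 8.49 at E15.5 and 79.4 at PN, and the 7 endothelial markers to 19.3, 10.2 and 34.9, with 2.89 at E13.5. The 8 interneuron and ventral markers summed to 423 ± 279 TPM in NSC and 15.9 ± 13.2 in BP. No marker of these lists was at 0 in every library, and the part of such cells in the results below was not tested. In sorted bulk samples, fewer cells of a type and less RNA per cell cannot be told apart.

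**Figure D3:**
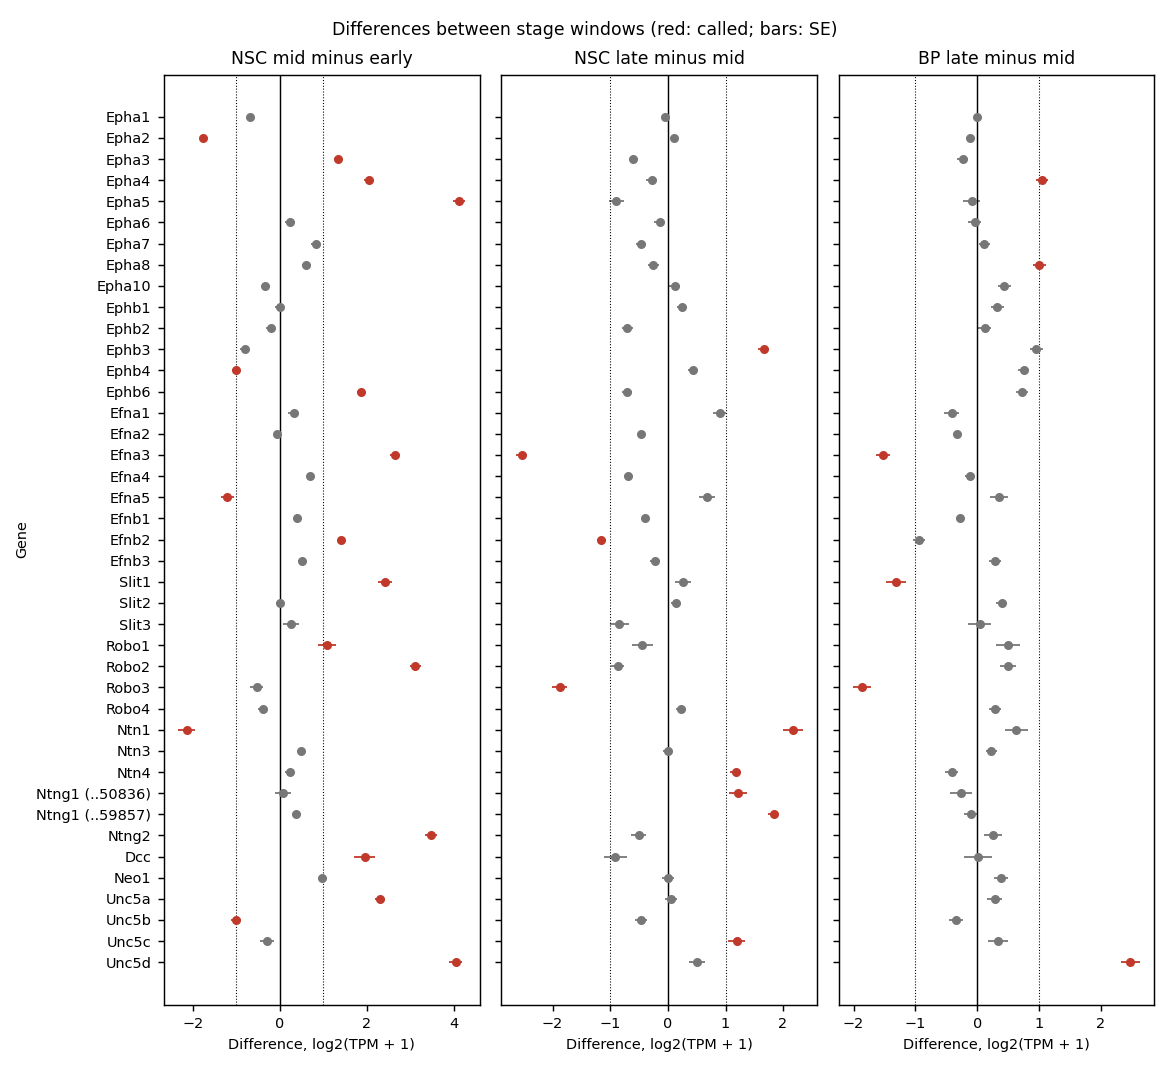
Log2 difference on the log2(TPM + 1) scale (horizontal axis, bars are the standard error) between stage windows for the 41 tested members (vertical axis) in NSC mid minus early, NSC late minus mid and BP late minus mid, with called members in red. Epha5 and Unc5d are the highest in NSC mid minus early, Ntn1 turns from called lower to called higher in NSC, and Unc5d is the highest in BP late minus mid.

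Epha4, a receptor that binds both A and B ephrins, was the most abundant EphA receptor and peaked in BP. In BP it stood at 49.4, 49.4 and 75.5 TPM at E12.5, at 197, 203, 204 and 204 at E15.5, and at 322 and 357 at E17.5, before 197 and 207 at PN. In NBN it stood at 53.2 to 55.9 TPM over the 4 libraries of E15.5 and reached 122 and 155.3 at PN. Every BP library from E15.5 on lay above every NBN library. Averaged over the shared stages the level was 84.9 TPM in NBN and 245 in BP, a log2 difference of -1.58 ± 0.08 (SE; adjusted p = 3.56e-24, limma), lower at each of 5 stages. In BP it rose from mid to late by 1.05 ± 0.10, although without BP E13.5 replicate 1 the value was 0.98, and with median ratio scaling 0.92, and both missed the threshold.

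In NSC, Epha4 started at 17.9 to 28.9 TPM at E10.5 and reached 169, 178 and 236 at E17.5, then stood at 66.5 to 73.4 at PN. The early to mid rise was 2.04 ± 0.10 (adjusted p = 2.37e-24). The mid to late change differed between BP and NSC by 1.33 ± 0.14 (adjusted p = 6.41e-12), with -0.28 in NSC, which was under the size threshold.

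Epha5, a neural EphA receptor, had the largest rise of any member in early NSC. It was listed at 0.293, 0.42 and 0.494 TPM at E10.5, at 3.52 to 6.65 at E11.5 and at 52.5, 71.7 and 84.9 at E14.5, so the groups did not overlap. The early to mid difference was 4.12 ± 0.14 (adjusted p = 5.21e-32). Epha3, a receptor of A-type ephrins, rose in the same window by 1.33 ± 0.10, from a mean of 36.2 TPM to 85.3. Epha2, known from epithelia, went the other way: 5.20 to 6.44 TPM at E10.5, 2.48 to 2.83 at E11.5 and 0.173 to 0.281 at E15.5, a fall of -1.76 ± 0.07. Neither Epha3 nor Epha5 was called between cell types.

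The other EphA receptors were lower or steadier. Epha7 stood between 6.84 and 31.4 TPM in all 70 libraries and was called in no comparison of cell types or windows. Epha6 and Epha8 were low genes with their highest levels outside NSC: Epha6 had a mean of 2.41 ± 1.501 TPM in NBN, 0.701 ± 0.342 in BP and 0.414 ± 0.510 in NSC, and Epha8 of 3.64 ± 0.994, 2.64 ± 1.57 and 0.924 ± 0.627. Both were called higher in NBN than in NSC, by 1.20 ± 0.08 and 1.21 ± 0.08. Epha6 was also called in NBN against BP at 1.01 ± 0.08, a value of 0.966 to 0.997 without any 1 of 7 libraries: BP E15.5 replicate 2, BP E16.5, E17.5 and E18.5 replicates 1, NBN E15.5 replicate 4, and NBN E16.5 and E18.5 replicates 1. Epha8 rose in BP from mid to late by 1.01 ± 0.10, and that call was lost, at 0.95 to 0.98, without any 1 of 8 libraries: BP E13.5 replicates 1 and 3, E14.5 replicate 2, E15.5 replicate 4, E17.5 replicate 2, E18.5 replicates 1 and 3, and PN replicate 1. Epha1 and Epha10 had no group mean above 1.54 and 2.59 TPM.

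**Figure D4:**
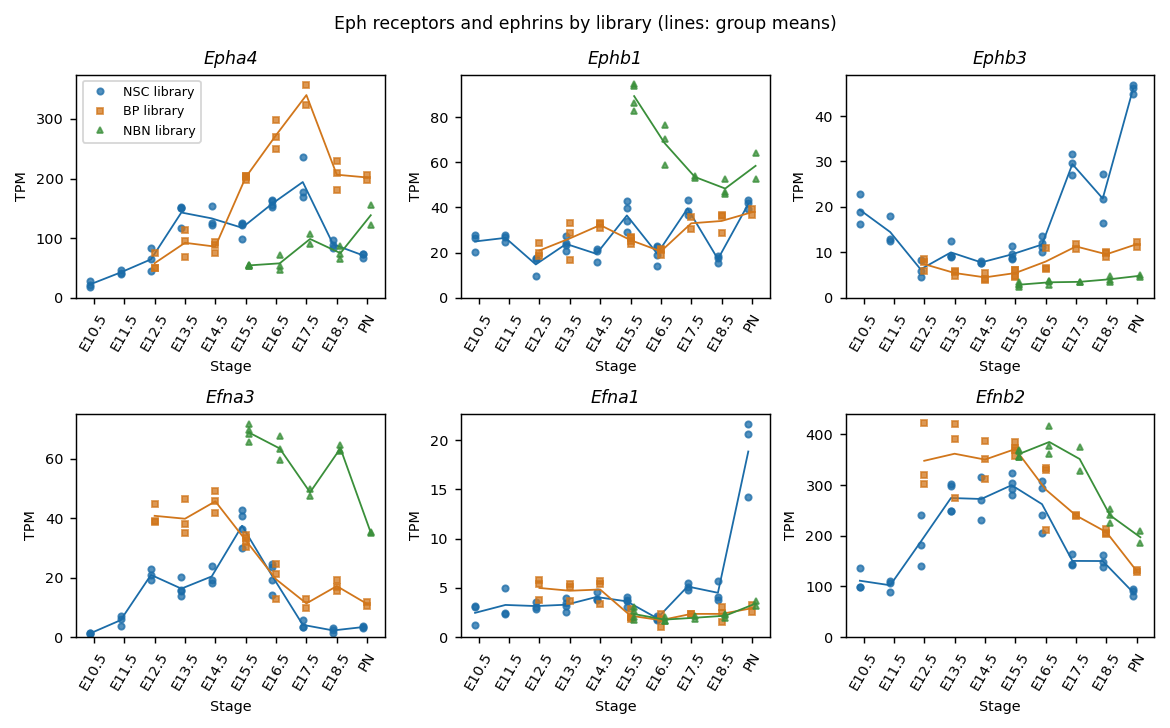
TPM (vertical axis, linear) of 3 Eph receptors and 3 ephrins in every library against stage (horizontal axis), with blue circles for NSC, orange squares for BP and green triangles for NBN and lines through group means. Epha4 peaks in BP at 322 and 357 TPM at E17.5, Ephb1 and Efna3 are highest in NBN at E15.5, and Ephb3 and Efna1 are highest in NSC at PN.

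Among EphB receptors, which bind mainly B-type ephrins, Ephb1 was higher in NBN than in both progenitor populations. It stood at 82.5, 86.3, 93.6 and 94.5 TPM in NBN at E15.5, where NSC libraries held 29.4 to 42.8 and BP libraries 23.7 to 26.8. Every NBN library, at 46.0 TPM or more, lay above every NSC and BP library, of which the highest was 43.5. The difference was 1.05 ± 0.08 to BP (adjusted p = 6.53e-17) and 1.08 ± 0.08 to NSC, present at each of 5 stages. It narrowed with age: the change after E16.5 was lower in NBN than in BP by -1.13 ± 0.16 (adjusted p = 4.26e-07), and at PN the values were 52.6 and 64.2 in NBN against 36.5 and 39.3 in BP.

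Ephb3 was lowest in NBN and, from E13.5 on, highest in NSC. At PN its libraries read 44.9, 46.1 and 46.9 TPM in NSC, 11.3 and 12.3 in BP, and 4.68 and 5.06 in NBN. In NSC it was high at E10.5 (16.2 to 22.95 TPM), low at E14.5 (7.63 to 8.11) and rose from mid to late by 1.66 ± 0.09 (adjusted p = 1.79e-22). The difference of NBN to NSC was -2.17 ± 0.08 and of NBN to BP -1.07 ± 0.08. The second lost its call with a pseudocount of 5 TPM (-0.68), with median ratio scaling (-0.98) or quantile normalization (-0.93), and without E17.5 (-0.98), while its value for BP against NSC was -0.84.

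Ephb4, the receptor of ephrin-B2 best known from veins, was also highest in NSC. It stood at 30.3, 36.8 and 41.1 TPM in NSC at E10.5 and at 18.2 to 18.4 at PN, while BP libraries held 1.57 to 3.05 at E12.5 and at most 8.03 at any stage. All NSC libraries, at 8.22 TPM or more, lay above all BP libraries. The difference was -1.44 ± 0.05 (adjusted p = 1.27e-30), lower at each of 8 stages. Over all libraries, whose stages differ between cell types, the 7 endothelial markers summed to 14.4 ± 11.47 TPM in NSC and 14.7 ± 16.4 in BP. They summed to 25.5 ± 15.3 in NBN, where Ephb4 was 5.27 ± 1.70. Each of the 7 pericyte and meningeal markers had a higher mean in NSC than in BP, with Pdgfrb at 8.31 and 0.899 TPM and Col1a1 at 2.37 and 1.68. The part of such cells in the Ephb4 levels was not tested.

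Ephb6, an Eph receptor without kinase activity, was highest in BP. It climbed from 21.1 to 23.3 TPM at E12.5 to 93.0, 98.1 and 100.3 at E16.5 and was still 77.7 and 85.2 at PN. NSC reached 41.5 to 59.5 TPM at E16.5 and then stood at 12.1 to 14.0 at E18.5. BP exceeded NSC at each of 8 stages, by 1.17 ± 0.05 on average (adjusted p = 5.79e-26), and the mid to late change differed by 1.42 ± 0.13. Ephb2, a receptor of B-type ephrins, was abundant everywhere (81.1 ± 27.7, 96.7 ± 19.97 and 96.1 ± 12.1 TPM in NSC, BP and NBN) and was called in no comparison of cell types or windows. It still changed with stage: the F test over NSC stages called all 5 EphB receptors. Ephb2 group means in NSC ran from 129.9 TPM at E11.5 to 43.0 at PN.

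Of the A ligands, Efna3 was the only one called between cell types, highest in NBN, then BP, then NSC. In NBN it stood at 65.7, 68.3, 69.7 and 71.7 TPM at E15.5 and at 35.1 and 35.3 at PN. In BP it went from 38.6, 39.2 and 44.7 at E12.5 to 10.4 and 11.9 at PN, and in NSC from 0.984 to 1.46 at E10.5 through 29.9 to 42.7 at E15.5 to 3.03 to 3.79 at PN. At every shared stage all NBN libraries were above all BP and NSC libraries. The difference was 1.64 ± 0.09 to BP (adjusted p = 1.84e-23) and 2.63 ± 0.08 to NSC (adjusted p = 1.92e-34). It fell from mid to late in NSC by -2.54 ± 0.10 and in BP by -1.52 ± 0.11, a difference between them of 1.02 ± 0.15.

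That last difference was at the edge of the threshold. Efna3 had 0.956 to 1.000 in this interaction without any 1 of 10 libraries: NSC E13.5 replicate 3, E14.5 replicate 3, E15.5 replicate 1, E17.5 replicates 2 and 3 and E18.5 replicate 3, and BP E13.5 replicate 1, E17.5 replicate 2, E18.5 replicate 1 and PN replicate 1. In NSC, the neuronal list and Efna3 were both highest at E15.5, as given above.

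Its neighbour Efna1, known from vessels and epithelia, behaved otherwise. It stayed between 0.985 and 5.80 TPM in every library except the 3 of NSC at PN, which read 14.3, 20.6 and 21.6. The mid to late change in NSC was 0.90 and not called on its own, but it exceeded that of BP: the interaction was -1.31 ± 0.17 (adjusted p = 2.61e-09). Efna4, the third gene of the cluster, ran from 15.6 to 50.7 TPM over all libraries and was called in no comparison of cell types or windows. The F test over NSC stages called all 5 ephrin-A ligands changed, Efna4 among them. Over the 23 group means of log2(TPM + 1), Pearson's r was -0.37 for Efna1 with Efna3, 0.61 for Efna3 with Efna4 and -0.44 for Efna1 with Efna4, a description of groups that share cell types and stages.

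Efna2 stood at 39.3 ± 8.90, 42.4 ± 7.16 and 48.5 ± 5.90 TPM in NSC, BP and NBN and was called in no comparison of cell types or windows, but it changed over NSC stages by a range of 1.27 log2 units (adjusted p = 9.36e-18), with 19.2 to 21.5 TPM at PN. Efna5, a ligand known for graded maps of axons, was highest in BP at E12.5 (15.8, 19.6 and 20.8 TPM), where all 3 libraries exceeded every other library of the series. In NSC it fell from early to mid by -1.21 ± 0.15, from 10.4 to 4.23 TPM.

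Efnb2, a transmembrane ligand of EphB receptors and Epha4, peaked in mid stages in NSC. It stood in NSC at 98.8, 99.5 and 136 TPM at E10.5, at 280.3 to 324 at E15.5 and at 80.3, 91.0 and 94.1 at PN. It rose from early to mid by 1.40 ± 0.09 and fell from mid to late by -1.15 ± 0.08 (adjusted p = 6.34e-18), a fall that was -0.90 and not called when PN was left out. In BP it went from 301 to 424 TPM at E12.5 to 129 and 132 at PN, and in NBN from 355 to 369 at E15.5 to 185.3 and 209 at PN. Over all libraries, whose stages differ between cell types, Efnb3 averaged 58.3 ± 17.3 TPM in NSC, 85.6 ± 23.7 in BP and 127 ± 21.3 in NBN. At shared stages NBN exceeded NSC by 1.04 ± 0.07 (adjusted p = 1.12e-19). That value was 0.988 with a pseudocount of 5 TPM and 0.995 with array weights, both not called. BP against NSC was not called for Efnb3, and BP was lower at 2 of 8 stages. Efnb1 ran the other way over all libraries, at 181 ± 43.2, 144 ± 24.2 and 85.2 ± 14.1 TPM. Its difference of -0.96 for NBN against NSC missed the size threshold, and BP was above NSC at 3 of 8 stages.

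**Figure D5:**
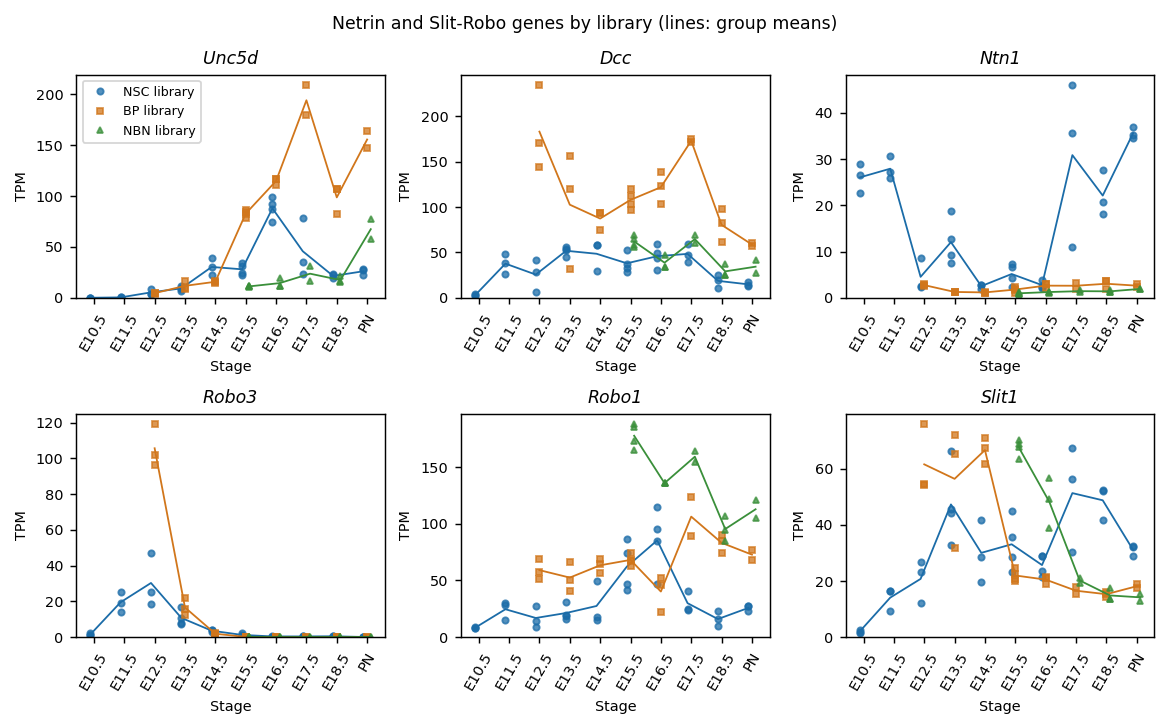
TPM (vertical axis, linear) of 3 netrin family genes, Robo3, Robo1 and Slit1 in every library against stage (horizontal axis), with blue circles for NSC, orange squares for BP and green triangles for NBN and lines through group means. Robo3 drops from 96.3 to 119 TPM in BP at E12.5 to near 0, Unc5d peaks in BP at 179 and 209 TPM at E17.5, and Ntn1 stays at 3.71 TPM or below outside NSC.

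Slit1, a secreted repellent, fell with stage in BP and in NBN, and no such fall was called in NSC. In BP it stood at 61.8, 67.4 and 70.8 TPM at E14.5 and at 19.9 to 24.6 at E15.5, and stayed at 14.3 to 21.5 afterwards. In NBN it stood at 63.4 to 70.2 TPM at E15.5, at 38.8, 49.2 and 56.7 at E16.5 and at 13.1 to 20.96 later. No BP library after E14.5 reached the level of any BP library of E12.5 to E14.5. The falls were -1.31 ± 0.16 in BP (mid to late, adjusted p = 3.28e-10) and -1.75 ± 0.17 in NBN (adjusted p = 2.42e-12). In NSC, where the level at E17.5 was 30.3, 56.4 and 67.3, the mid to late difference was 0.26, and the interaction of BP with NSC was -1.57 ± 0.21.

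The step came at different ages in BP and NBN. The change from E15.5 and E16.5 to later stages differed by -1.42 ± 0.24 (adjusted p = 1.74e-05), since Slit1 had already dropped in BP by E15.5. In early NSC, Slit1 rose by 2.42 ± 0.16, from 1.64 to 2.63 TPM at E10.5 to 32.8 to 66.5 at E13.5. Slit2, the other well expressed Slit, lay between 7.57 and 31.3 TPM in all libraries and was called in no comparison of cell types or windows. The F test over stages called all 3 Slits changed, in NSC and in BP. Slit3 was low, at 2.14 ± 1.69 TPM in NSC, 4.98 ± 2.97 in BP and 5.31 ± 1.39 in NBN, with its highest group mean in BP at E17.5 (8.44). It was called higher in NBN than in NSC, by 1.22 ± 0.13. BP was above NSC at 7 of 8 stages, but that difference was not called.

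Averaged over shared stages, Robo1 and Robo2, the main Slit receptors of the brain, were both higher outside NSC. With E12.5 to E16.5 alone neither was called in BP against NSC, and Robo1 was at 0.73. At E16.5 Robo1 was lower in BP than in NSC (-1.08). Robo1 stood in NBN at 164.8 to 188 TPM at E15.5 and at 104.8 and 121 at PN. BP libraries held 62.9 to 74.4 TPM at E15.5 and 68.3 and 77.3 at PN, while NSC libraries ran from 41.7 to 86.5 and from 22.9 to 27.3 at the same stages. Robo1 was higher in BP than in NSC by 1.16 ± 0.11 (7 of 8 stages) and higher in NBN than in NSC by 1.87 ± 0.15 (adjusted p = 3.53e-17), while its 0.92 in NBN against BP was under the size threshold. It also rose in NSC from early to mid by 1.08 ± 0.20, a value of 0.93 without NSC E11.5 replicate 1 and 0.91 without NSC E14.5 replicate 3, and of 0.84 and 0.74, not called, with median ratio scaling and quantile normalization. The later change in NBN was below that in BP by -1.12 ± 0.30 (adjusted p = 0.0101), and -0.94 without BP E16.5 replicate 1, a library at 22.5 TPM beside 46.2 and 52.0 in its group.

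Robo2 changed over NSC stages by a range of 5.08 log2 units, from 3.72, 4.49 and 5.47 TPM at E10.5 to 128 to 235 at E16.5, and then stood at 30.5 to 42.6 at PN. BP libraries stood at 63.9 to 106 TPM up to E14.5, at 207 and 244 at E17.5 and at 119.8 and 131 at PN. The early to mid rise in NSC was 3.12 ± 0.13 (adjusted p = 1.59e-27). BP exceeded NSC by 1.04 ± 0.08 and NBN exceeded NSC by 1.27 ± 0.10, and the mid to late change differed between BP and NSC by 1.37 ± 0.18.

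Robo3, the receptor known from commissural axons of the hindbrain and spinal cord, was high at early stages and near 0 later. In BP it stood at 96.3, 102 and 119 TPM at E12.5, at 12.3, 15.8 and 21.7 at E13.5, at 1.66 to 2.36 at E14.5 and at 0.241 or less in all later libraries. In NSC it rose from 1.08 to 2.20 TPM at E10.5 to 18.8, 25.0 and 47.2 at E12.5 and was at 0.775 or less from E16.5. No 2 of the BP groups of E12.5, E13.5, E14.5 and later overlapped. The F test over BP stages gave a range of 6.70 log2 units (adjusted p = 1.83e-32), the widest of the members in BP, and the mid to late fall was -1.86 ± 0.14 in BP and -1.88 ± 0.13 in NSC. The 5 Cajal-Retzius markers were also highest in BP at E12.5, with sums of 415 to 452 TPM, and fell to 112 to 116 at E15.5. Their mean sum was 235 at E17.5 and 265 at PN, where Robo3 was near 0. Calb2 and Reln weigh most in this sum, with means of 82.5 and 71.8 TPM over BP libraries. Trp73, Lhx5 and Lhx1 had means of 31.5, 12.4 and 8.71, medians of 20.1, 5.26 and 4.13 and highest values of 120, 74.4 and 44.9 TPM. Calb2 and Reln had medians of 66.3 and 64.9 and highest values of 217 and 138. Single markers of the list were not followed over stages, so the late sum does not give the course of Trp73, Lhx5 and Lhx1. In NSC that list was highest at E13.5 (122.5 TPM, beside 114 at E12.5), and the part of those cells was not tested.

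Robo4, the endothelial Robo, had no group mean above 1.26 TPM. Robo3 and Robo4 lie on chromosome 9 (GRCm38, 37415669 to 37433246 and 37401897 to 37415115) on opposite strands, 0.554 kb apart.

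Among netrins, Ntn1 had its highest levels in early and late NSC. It stood at 22.7, 26.7 and 28.9 TPM at E10.5 and 26.0 to 30.6 at E11.5, at 7.45, 9.30, 12.7 and 18.7 at E13.5, at 2.01 to 2.84 at E14.5 and 2.21 to 3.89 at E16.5, and at 34.7, 35.1 and 37.1 at PN. BP and NBN libraries held 0.728 to 3.71 TPM at every stage. The early to mid fall was -2.14 ± 0.19 (adjusted p = 1.37e-14) and the mid to late rise 2.17 ± 0.17 (adjusted p = 1.72e-16), and the change in BP was smaller by -1.53 ± 0.26. Ntn1 was lower in BP than in NSC by -1.68 ± 0.11 and in NBN than in NSC by -2.53 ± 0.14, with stage differences to BP from -3.34 at PN to -0.04 at E16.5. The NSC libraries of E17.5 spread widely, at 10.9, 35.7 and 46.1.

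Ntn4, a basement membrane netrin, followed the order NSC, BP, NBN. At PN its libraries read 37.5, 40.6 and 41.5 TPM in NSC, 6.56 and 6.77 in BP, and 2.02 and 2.41 in NBN. The differences were -1.23 ± 0.06 for BP against NSC, -1.17 ± 0.08 for NBN against BP and -2.78 ± 0.08 for NBN against NSC (adjusted p = 5.76e-36), and BP and NSC libraries overlapped only at E12.5 (17.4 to 18.7 and 13.6 to 20.6 TPM) and E16.5 (9.76 to 11.4 and 11.04 to 25.2 TPM). In NSC it rose from mid to late by 1.17 ± 0.10. Ntn3 was the netrin with its highest level in NBN, at 12.1 ± 1.10 TPM against 6.51 ± 1.30 in BP and 4.67 ± 2.10 in NSC, with differences of 0.71 and 0.99 that were under the size threshold.

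The netrin-G genes encode lipid-anchored relatives that bind synaptic adhesion proteins and not DCC. Ntng2 rose steeply in NSC, from 1.49, 1.77 and 2.12 TPM at E10.5 to 72.7 to 84.5 at E15.5, an early to mid difference of 3.47 ± 0.14 (adjusted p = 2.05e-28). It was higher in BP than in NSC at each of 8 stages, by 1.03 ± 0.08 on average, and by 0.99 without NSC E12.5 replicate 3 or BP E13.5 replicate 2. Ntng1 (ENSMUSG00000059857) was low, at 0.0824 to 0.115 TPM in NSC at E10.5 and 5.53, 6.34 and 6.39 at PN, a late rise of 1.84 ± 0.10 (adjusted p = 2.58e-23) that exceeded that of BP (interaction -1.94 ± 0.15). Ntng1 (ENSMUSG00000050836), the row under the same symbol that was not matched to the annotation, was listed at 0 in every BP library from E15.5 and rose in late NSC by 1.21 ± 0.16.

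Unc5d, a repulsive netrin receptor that also binds FLRT proteins, had the widest range over stages of the netrin receptors, 6.33 log2 units in NSC and 5.12 in BP. In BP it stood at 3.82, 4.79 and 5.24 TPM at E12.5, at 14.7 to 16.9 at E14.5, at 78.6 to 86.4 at E15.5, at 179 and 209 at E17.5 and at 147 and 164 at PN. In NBN it stood at 10.2 to 11.98 TPM at E15.5 and at 57.6 and 77.3 at PN, below every BP library of the same stage. NBN was lower than BP by -2.48 ± 0.12 (adjusted p = 9.09e-25), at each of 5 stages, with 26.9 against 129 TPM on average. In BP it rose from mid to late by 2.48 ± 0.16 (adjusted p = 1.41e-19), which exceeded the change in NSC by 1.98 ± 0.21.

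In NSC, Unc5d rose from 0.0675 to 0.141 TPM at E10.5 to 74.1, 87.2, 91.9 and 98.7 at E16.5, an early to mid rise of 4.04 ± 0.16, and stood at 22.2 to 28.7 at PN. Its call in BP against NSC (1.02 ± 0.09) was not stable: BP was lower at 2 of 8 stages, and the value was 0.972 to 0.999 without any 1 of 6 libraries, namely NSC E12.5 replicates 2 and 3, E13.5 replicate 1, E14.5 replicate 1 and E17.5 replicate 2 and BP E13.5 replicate 2. The rise of 1.18 ± 0.17 in late NBN was 0.61 without PN.

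Dcc, the attractive netrin receptor, was higher in BP than in NSC and NBN. It stood in BP at 144.5, 170.3 and 234 TPM at E12.5 and at 171 and 174 at E17.5, against 6.45, 28.5 and 41.9 and 39.1, 47.2 and 59.0 in NSC. BP was higher at each of 8 stages, by 1.68 ± 0.13 (adjusted p = 8.34e-17), and at every stage but E13.5 all BP libraries lay above all NSC libraries. At E13.5, BP replicate 1 read 31.6 TPM beside 119.5 and 157, and the NSC libraries 44.6 to 56.0. NBN was lower than BP (-1.21 ± 0.18, adjusted p = 4.30e-08; not called against NSC, 0.55), with 45.8 against 108 TPM. In early NSC, Dcc rose by 1.95 ± 0.23, from 1.88 to 3.73 TPM at E10.5.

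Neo1, which encodes neogenin, a receptor of netrins and repulsive guidance molecules, was the most abundant netrin receptor in each cell type, at 86.7 ± 36.6, 149.6 ± 47.2 and 181 ± 31.9 TPM in NSC, BP and NBN. It was higher in BP than in NSC at each of 8 stages, but the mean difference of 0.73 was under the size threshold. Unc5a rose in early NSC by 2.30 ± 0.12, from 3.56 to 5.46 TPM over E10.5 and E11.5 to 35.4 to 43.4 at E15.5. Unc5c was low, with its highest group mean in NBN at E17.5, where NBN held 15.2 and 18.8 TPM and BP 2.45 and 2.97. The mean difference of NBN to BP was 1.67 ± 0.13 (adjusted p = 3.74e-17), present at each of 5 stages. With a pseudocount of 5 TPM it was 0.967 and not called. Unc5c was not called in NBN against NSC, where the stage differences ran from -0.27 at PN to 2.27 at E17.5. It also rose in late NSC by 1.19 ± 0.15, a call that was lost without PN (0.84) and with quantile normalization (0.75).

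Unc5b, a netrin receptor of vessels and neurons, fell in early NSC by -1.01 ± 0.12, from a mean of 14.7 TPM to 6.84. That value was -0.956 to -0.9998 and not called without NSC E10.5 replicate 1, E11.5 replicate 3, E14.5 replicate 1 or E15.5 replicate 3. Ephb4 fell alongside by -1.02 ± 0.09, and by -0.96 to -0.99, not called, without NSC E10.5 replicate 1, E11.5 replicate 3, E13.5 replicate 1, E14.5 replicate 3 or E15.5 replicate 1. Without NSC E10.5 replicate 1 or E11.5 replicate 3, both calls were lost and 3 members were called lower.

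From mid to late, the change in BP differed from that in NSC for 12 of 41 members, 6 in each direction, where 2.86% of all genes were higher and 6.85% lower (9.70% in all). The 6 higher in BP were the receptors Unc5d, Ephb6, Robo2, Epha4 and Epha8 and the ligand Efna3. The 6 lower were the secreted or membrane-anchored Slit1, Ntn1, Ntn4, Efna1 and both Ntng1 rows. In the later change of NBN against BP, 3 members were called, all lower (Slit1, Ephb1 and Robo1), against 0.941% of all genes lower and 1.36% in either direction.

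Genes that work with these families were counted from a list: 23 co-ligands and co-receptors and 30 cytoplasmic effectors. Of the first, 11 rose and 1 fell in NSC from early to mid, where 13.7% and 5.26% of all genes did, with Draxin, a secreted repellent that binds DCC, at 3.05 ± 0.12, the netrin receptor Dscam at 2.89 ± 0.15 and its relative Dscaml1 at 2.66 ± 0.15, while the proteoglycan Sdc1 fell by -1.33 ± 0.07. Of the second, 4 rose. In BP against NSC, where 6.22% of all genes were lower, the syndecans Sdc4 and Sdc2 and the neogenin ligand Rgma were lower (-2.03 ± 0.06, -1.58 ± 0.06 and -1.44 ± 0.06), as was 1 effector, the Rac activator Dock1 (-1.67 ± 0.06). In NBN against BP, 4 of the first list were higher and 2 lower, against 4.36% and 5.06% of all genes, among them Lphn3 (1.63 ± 0.11) and the Robo3 ligand Nell2 (1.49 ± 0.09), and of the effectors 2 were higher, with the actin-binding Ablim1 at 2.67 ± 0.12. From mid to late in NSC, 4 of the first list rose and 2 fell, and 3 effectors rose and 1 fell, against 9.31% and 2.45% of all genes.

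Across the 23 group means, the members whose levels ran most alike were Ntng2 and Robo2 (Pearson's r = 0.96), Unc5a and Ntng2 (0.93), Epha1 and Epha2 (0.93) and Epha4 and Unc5d (0.91). The most opposed pair was Ntng2 and Epha2 (-0.95). These values describe groups that share cell types, stages and scaling. In the promoter windows, the E-box CAGATG (either strand) occurred in 4 of 41 windows of 36 members, or 9.76%, against 14.4% of all 32851 promoters, and CAGCTG, which reads the same on both strands, in 6, or 14.6%, against 13.0%. No window was used for Slit1, Ntn1, Unc5d, Efnb3 and Dcc.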

How the data were processed

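RNA sequencing libraries were prepared with the TruSeq kit from sorted cells and read as single 50-base reads, per the labels' protocols. The authors deposited gene-level TPM. The submitters' processing notes name kallisto 0.43.0 and, as builds, GRCm38.p2 and mm10. TPM keep no depth, so no counting intervals were computed, and a rise of a few genes lowers all others. Each of the 70 columns carries a sample's title.

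Groups came from the titles. The 15508 genes tested had a group mean of 1 TPM or more in any of the 23 groups. One mean per group was fitted to log2(TPM + 1) with limma 3.58.1 in R 4.3.3, with moderated variances with a trend and 47 residual degrees of freedom. Log2 differences understate changes of low genes. Every member found by the symbol rule was described, and up to 3 genes per direction of the other pathway genes were named. The members and lists were chosen with earlier results of these data known. Coordinates are from GENCODE M21 (GRCm38), which matched 39 of 42 rows by identifier, and promoters from RefSeq on GRCm38.p6. The fit was tested on simulated data. Alternatives covered the pseudocount, filter, scaling, variance model, array weights, stage windows, a Y-linked covariate, replicate numbers as a block and each library left out.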

Additional observations from a re-analysis of the deposited data

Results flagged for a closer look

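In 7 of 169 combinations of a member and a group of 4 libraries, 1 library stood apart from the other 3 by more than Dixon's 95% limit, where chance gives about 1 in 20. Epha4 did so in 3 groups: NSC E13.5 replicate 1 read 117.66 TPM beside 150.08 to 153.07, NSC E15.5 replicate 4 read 97.934 beside 122.52 to 126.07, and BP E15.5 replicate 1 read 197.38 beside 203.19 to 204.06. Neo1 was also low in NSC E13.5 replicate 1, at 56.51 TPM beside 79.386 to 81.043. Ephb3 in NSC E13.5 replicate 2 read 12.457 TPM beside 9.0255 to 9.2976, Ephb6 in NSC E16.5 replicate 1 read 41.501 beside 56.375 to 59.535, and Unc5b in NSC E15.5 replicate 3 read 5.5026 beside 6.1725 to 6.3072.

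The mid to late change differed between BP and NSC, by an interaction term in limma, for 12 members. The change was higher in BP for Unc5d (1.98 ± 0.21 SE), Ephb6 (1.42 ± 0.13), Robo2 (1.37 ± 0.18), Epha4 (1.33 ± 0.14), Epha8 (1.26 ± 0.14) and Efna3 (1.02 ± 0.15). It was lower in BP for Ntng1 (ENSMUSG00000059857) (-1.94 ± 0.15), Ntn4 (-1.58 ± 0.14), Slit1 (-1.57 ± 0.21), Ntn1 (-1.53 ± 0.26), Ntng1 (ENSMUSG00000050836) (-1.47 ± 0.23) and Efna1 (-1.31 ± 0.17). The largest adjusted p of these was 1.22e-06, for Ntn1. The change from E15.5 and E16.5 to later stages was lower in NBN than in BP for Slit1 (-1.42 ± 0.24), Ephb1 (-1.13 ± 0.16) and Robo1 (-1.12 ± 0.30, adjusted p = 0.0101).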

How the results depend on the processing

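No called member reversed its direction under any alternative run. With a pseudocount of 0.1 TPM, 6 members were lower in BP against NSC, 9 lower in NBN against NSC, 2 rose in late NBN and 5 were lower in the later change of NBN against BP. With 5 TPM, 3 members were higher and 1 lower in BP against NSC, 1 higher and 3 lower in NBN against BP, 3 higher and 3 lower in NBN against NSC, 1 fell in NSC from early to mid, 3 rose in NSC from mid to late, 3 were lower in the mid to late change of BP against NSC, and 6 changed over NBN stages. Median ratio scaling gave 5 members falling in late NSC and 1 rising in late BP. Quantile normalization gave 3 lower in NBN against NSC and 6 falling in late NSC. Array weights, whose estimate stopped before convergence, gave 3 falling in NSC from early to mid and 2 rising in late NBN, and ended the calls of Ntng2 (0.97) and Unc5d (0.90) in BP against NSC and of Epha6 in NBN against BP (0.98). Rescaling also ended the call of Epha8 in late BP (0.90 by median ratio, 0.76 by quantiles), of Efna3 in the interaction of BP with NSC (0.98 by median ratio), of Ephb4 (-0.95) and Ntng1 (ENSMUSG00000059857) (-0.94) in NBN against NSC by quantiles, and of Ntng1 (ENSMUSG00000050836) in late NSC by quantiles (0.95). Stages E12.5 to E16.5 gave 1 higher and 1 lower in BP against NSC, and E17.5 to PN gave 11 and 8. Without 1 library at a time, the counts were 5 to 8 higher in BP against NSC, 3 to 4 higher in NBN against BP, 8 to 10 higher in NBN against NSC, 12 to 14 rising and 3 to 5 falling in NSC from early to mid, 3 to 4 falling in late NSC, 1 to 3 rising in late BP (1 without BP E13.5 replicate 1) and 3 to 4 falling, 1 to 2 rising in late NBN, 5 to 9 higher in the interaction of BP with NSC, and 2 to 3 lower in that of NBN with BP. Deviations of same-numbered BP and NBN libraries correlated above 0.1 in 8 of 14 pairs (r from -0.234 to 0.462), and 9 libraries, all those of E15.5, E17.5 and PN among them, correlated best with their own number. At E17.5 and PN each group held 2 libraries, whose deviations from the group mean mirror each other. The 2 pairs of such a stage therefore share 1 r (0.124 at E17.5, 0.363 at PN) and are not separate observations. The counts of 8 and 9 include them all. These correlations are at most a hint of pairing at some stages. The labels do not state pairing and not every pair passed 0.1, so the libraries were not treated as paired. With replicate numbers as a block, every count was as in the main analysis, including 7 higher and 3 lower in BP against NSC, and pairing within stage gave 4 higher and 5 lower in NBN against BP. Leaving out the 4 libraries with most genes above 0, or the 3 closest to another group, both chosen after seeing the data, moved no count by over 1.5 times. Single calls were still lost. Either run ended the call of Robo1 in NSC from early to mid. Without the 3 closest to another group, the calls of Ephb4 in NSC from early to mid, Epha8 in late BP and Efna3 in the interaction of BP with NSC also ended. Depth is unknown, so no counting error could be given for genes near 0 TPM.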
